A study of Homo sapiens with 2 samples.

Results

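Cytochrome P450 enzymes of families CYP1 to CYP4, UDP-glucuronosyltransferases of families UGT1 and UGT2 and cytosolic sulfotransferases (SULT) were followed in 2 xenograft tumours, 1 untreated and 1 refractory to trastuzumab emtansine (T-DM1). Membership was set by a pattern of gene symbols, chosen with earlier results of these data known, and 68 of the 29972 genes in the deposited table matched: 35 CYP, 19 UGT and 14 SULT genes. Both tumours were of NCI-N87, a human gastric carcinoma line with amplified ERBB2 (HER2), implanted under the skin of nude mice, which lack a thymus. The refractory tumour came from a mouse given T-DM1, a HER2 antibody carrying the microtubule poison DM1, every 3 weeks for 18 weeks. The other tumour is labelled as having had no treatment, and neither its age at collection nor any vehicle is given. Each group was 1 library of polyadenylated RNA, so no difference below has a replicate check or a test across tumours.

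P450 enzymes insert oxygen into drugs, steroids and fatty acids, with electrons from the reductase POR. UGT enzymes then couple glucuronic acid, and SULT enzymes couple sulfate, to the products or directly to phenols, steroids and bile acids. Members of CYP2C, CYP3A and UGT2B are known for drug metabolism in liver and gut. CYP4 enzymes oxidise the far end of fatty acids and eicosanoids. DM1 is a substrate of CYP3A4 and, to a lesser extent, CYP3A5.

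The enzymes did not move as a block. In the refractory tumour 3 UGT2 genes, CYP2C18 and CYP2C19 were higher, 5 CYP4 genes and CYP1B1 were lower, and CYP3A5, the enzyme with the highest level per gene length, was nearly the same. Levels are CPM (read counts scaled to library size), and a change is a log2 ratio, refractory to untreated, computed with 1 CPM added to both levels and called at 2-fold. Among 30 enzymes that reached 1 CPM in either library, 10 were higher (33.3%), against 9.80% of the 14167 genes described in the same way. Another 7 were lower (23.3%), against 11.0% of those genes, and 13 lay between. The median log2 over the 30 was 0.35, beside 0.03 over all described genes. Of the 30, 9 reached 1 CPM in the refractory library only and 3 in the untreated library only, and genes that pass a filter through 1 library are more likely to be called. Among the 18 enzymes at 1 CPM or more in both libraries, 2 were higher and 5 lower, where 8.55% and 7.69% of 12674 genes were. At 4-fold 8 of the 30 were higher and 4 lower, against 2.54% and 3.56% of all described genes (6.10% in either direction). The same filter limit holds there. Of those 8 only CYP2C18, and of those 4 only CYP1B1 and CYP4F3, were at 1 CPM or more in both libraries.

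**Figure D1:**
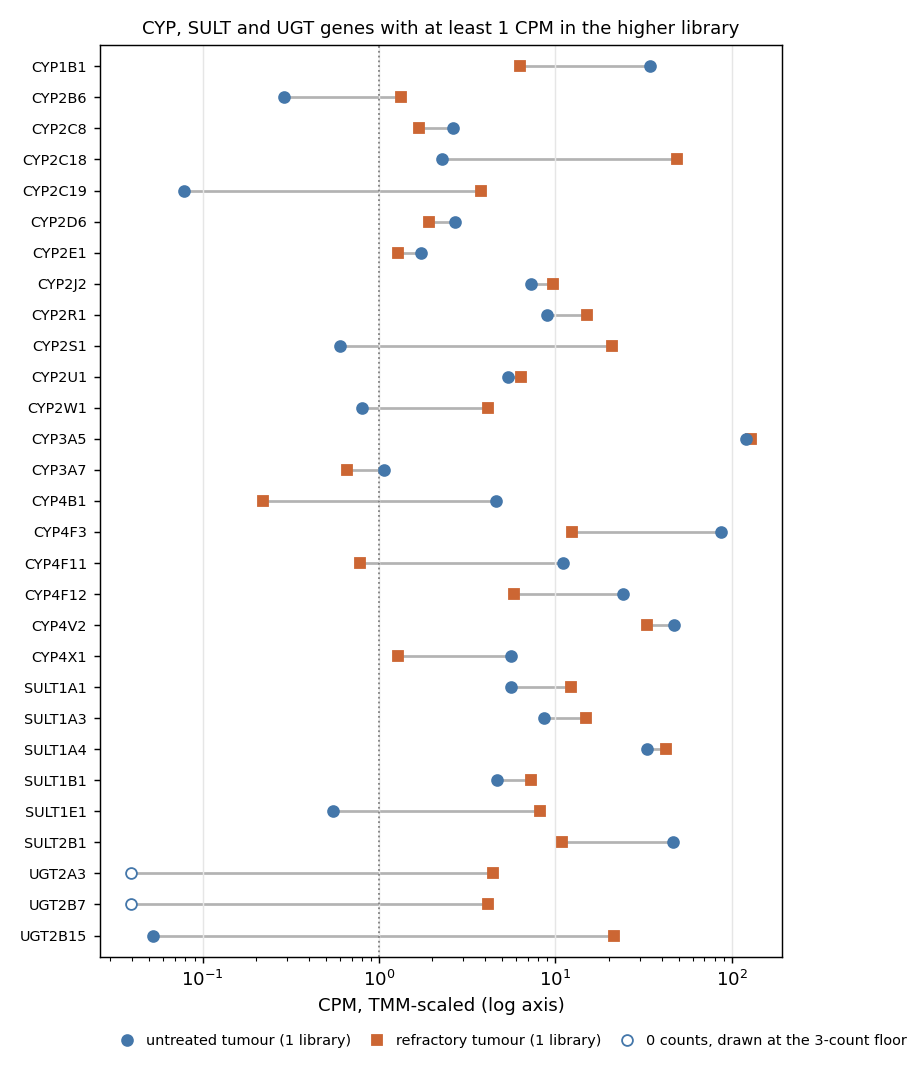
CPM of 29 of the 30 enzymes that reached 1 CPM in either library, on a log axis, with a circle for the untreated (open at 0 counts, drawn at the floor) and a square for the refractory library (1 each). UGT2, CYP2C18, CYP2C19 and CYP2S1 lie far to the right in the refractory library, most CYP4 genes and CYP1B1 lie to the left, and the CYP3A5 symbols overlap.

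The remaining 38 enzymes stayed under 1 CPM in both libraries, and 21 of them had 0 counts in both. Those 21 include all 9 UGT1A genes, from whose zeros no level is read below, though they enter the sums over the 68 enzymes. The libraries held 75722114 and 59902712 counts, so that 3 counts, used as the floor for a gene at 0, equal 0.0392 CPM (untreated) and 0.0506 CPM (refractory). The 68 enzymes together took 0.0473% and 0.0437% of the counts. Summed, they stood at 469 and 441 CPM, a ratio of 0.941 (95% interval 0.926 to 0.956). All intervals are exact Poisson intervals of a ratio and cover counting error only, since reads that carry no molecular identifier can be copies of 1 molecule. ERBB2, the target of the conjugate, stood at 7267 and 7975 CPM. The 5 epithelial markers were all present, at a sum of 7137 and 5991 CPM. In a bulk tumour, a change in the share of expressing cells and a change in RNA per cell cannot be told apart.

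**Figure D2:**
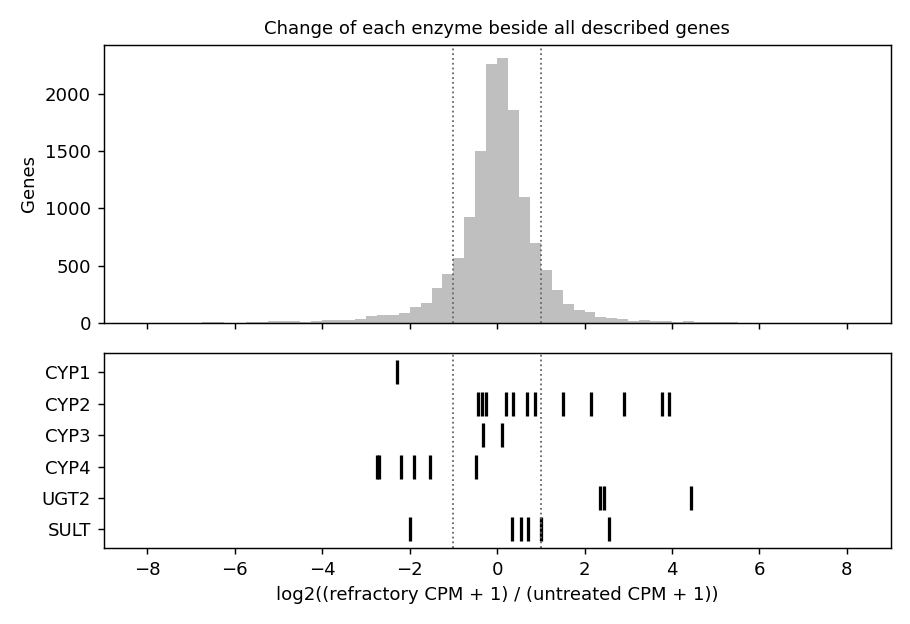
Top, number of genes by log2 change for all 14167 described genes, and bottom, 1 tick for each of the 30 enzymes by family, with dotted lines at 2-fold. All UGT2 ticks lie above the upper line, 5 of 6 CYP4 ticks below the lower line, and CYP2 ticks run from -0.43 to 3.94.

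The promoters of enzymes from 3 gene clusters are shown first, because the members of a cluster sit side by side in the genome and differed in their levels. Each is the 250 bases before the gene start in RefSeq (GRCh38.p14), written 5′ to 3′ on the gene's strand. Of the 68 enzymes 52 had an entry, among them 12 of the 17 called at 2-fold. Capitals mark matches, on either strand, to 4 short motifs: GCGTG (bound by AHR), TGACNNNGC (NRF2), TTTATG (CDX2) and AGGTCA (bound by nuclear receptors). The first set holds the 3 UGT genes that reached 1 CPM: UGT2A3 (chr4:68951805-68952054, minus strand), UGT2B15 (chr4:68670653-68670902, minus strand) and UGT2B7 (chr4:69096224-69096473, plus strand).
UGT2A3: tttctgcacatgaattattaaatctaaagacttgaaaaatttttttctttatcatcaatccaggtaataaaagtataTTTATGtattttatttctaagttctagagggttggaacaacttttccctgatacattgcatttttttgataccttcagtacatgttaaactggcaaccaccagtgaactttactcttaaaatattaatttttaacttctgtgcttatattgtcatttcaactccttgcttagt
UGT2B15: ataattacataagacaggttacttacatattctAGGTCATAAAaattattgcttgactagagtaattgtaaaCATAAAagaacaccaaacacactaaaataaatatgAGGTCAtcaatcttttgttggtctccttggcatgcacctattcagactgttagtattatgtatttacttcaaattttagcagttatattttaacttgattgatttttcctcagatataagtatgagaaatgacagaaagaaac
UGT2B7: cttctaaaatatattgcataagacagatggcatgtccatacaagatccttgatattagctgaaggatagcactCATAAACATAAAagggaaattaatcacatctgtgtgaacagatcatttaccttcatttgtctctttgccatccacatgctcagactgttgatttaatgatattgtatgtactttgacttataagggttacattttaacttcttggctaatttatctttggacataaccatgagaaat
All 3 hold the CDX2 motif on 1 strand or the other, which 10.02% of 27305 promoters of this length hold. The 3 are related genes of 1 cluster and not independent draws, and that share was not matched for base composition, so no enrichment is read from it. Counted from the gene start, the matches begin at -173 in UGT2A3, at -177 and -171 in UGT2B7, and at -213 and -178 in UGT2B15, where the first overlaps a nuclear receptor motif. The nuclear receptor motif is in 12.1% of promoters and the AHR motif in 31.9%. A match describes the letters and is not evidence of binding.

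The next pair is CYP2C19 (chr10:94762431-94762680, plus strand) and CYP2C8 (chr10:95069498-95069747, minus strand), members of 1 cluster of which the first was higher and the second was not.
CYP2C19: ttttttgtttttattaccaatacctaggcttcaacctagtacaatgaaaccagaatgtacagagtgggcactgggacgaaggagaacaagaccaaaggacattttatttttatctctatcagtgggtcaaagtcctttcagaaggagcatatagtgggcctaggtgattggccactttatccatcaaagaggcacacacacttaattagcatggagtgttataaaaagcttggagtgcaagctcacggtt
CYP2C8: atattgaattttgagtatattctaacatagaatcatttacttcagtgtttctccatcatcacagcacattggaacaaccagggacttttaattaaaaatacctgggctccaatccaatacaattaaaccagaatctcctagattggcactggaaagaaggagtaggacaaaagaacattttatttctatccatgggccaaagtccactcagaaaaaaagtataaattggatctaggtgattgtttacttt
Neither holds any of the 4 motifs. By global alignment they were 51.96% identical, where the median over all 1326 pairs of enzyme promoters was 48.8%. UGT2B15 and UGT2B7 were 61.0% identical.

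The last pair is CYP4F3 (chr19:15641062-15641311, plus strand) and CYP4F11 (chr19:15934868-15935117, minus strand), both lower in the refractory tumour.
CYP4F3: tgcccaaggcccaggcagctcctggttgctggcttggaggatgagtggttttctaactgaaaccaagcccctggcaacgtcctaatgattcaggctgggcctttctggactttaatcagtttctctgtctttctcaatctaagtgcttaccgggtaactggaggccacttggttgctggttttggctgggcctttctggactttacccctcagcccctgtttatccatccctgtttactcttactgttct
CYP4F11: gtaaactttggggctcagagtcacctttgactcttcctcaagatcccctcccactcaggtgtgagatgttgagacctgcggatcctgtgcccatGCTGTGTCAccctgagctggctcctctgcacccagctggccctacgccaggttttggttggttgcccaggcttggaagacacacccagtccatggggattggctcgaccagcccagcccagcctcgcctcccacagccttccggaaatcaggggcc
CYP4F11 holds 1 match to the NRF2 motif, at -156, a motif of which 11.0% of all promoters hold at least 1 copy. CYP4F3 holds none, and the pair was 49.1% identical. Over the 7 called higher with a promoter, 3 held the CDX2 motif, 2 the nuclear receptor motif, 1 the AHR motif and 0 the NRF2 motif. Over the 5 called lower, 1 held the AHR motif, 1 the NRF2 motif and 0 the other 2. Among the 12 between, 5 held the nuclear receptor motif, 2 the NRF2 motif, 1 the AHR motif and 1 the CDX2 motif. Among 28 enzymes under 1 CPM with a promoter, 8 held the AHR motif, 7 the CDX2 motif, 6 the nuclear receptor motif and 5 the NRF2 motif. UGT2B10 and UGT2B11, under 1 CPM with their few reads all in the refractory tumour, were among those with the CDX2 motif. CYP3A5, which lay between, held that motif too, so it is not particular to the 3 higher UGT2 genes.

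UGT2 genes, which glucuronidate steroids, bile acids and drugs, had almost no reads in the untreated tumour. The whole family of 10 genes held 4 counts there and 1828 in the refractory tumour, 0.0523 and 30.8 CPM, a ratio of 589 (95% interval 230 to 2164). UGT2B15, an androgen-conjugating enzyme (chromosome 4, coding region 68647104 to 68670618 in GRCh38, as for all coding regions below), had all 4 of the untreated counts and 1283 in the refractory tumour, or 0.0523 and 21.6 CPM, a ratio of 413 (95% interval 161 to 1519). UGT2A3 (68929813 to 68951760) went from 0 to 264 counts, 4.45 CPM, and was at least 113-fold higher. UGT2B7, the enzyme that glucuronidates morphine (69098566 to 69112736), went from 0 to 246 counts, 4.15 CPM, and was at least 106-fold higher. These bounds hold at the floor of 3 counts, and the exact intervals begin at 91.6 for UGT2A3 and 85.3 for UGT2B7. The only 3 UGT genes that could be described were therefore low or absent in one tumour and modest in the other.

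The other UGT2 genes were below 1 CPM. In the refractory tumour UGT2B4 had 10 counts, UGT2B11 had 9, and UGT2B10 and UGT2A2 had 8 each, all against 0 in the untreated tumour. UGT2A1, UGT2B17 and UGT2B28 had 0 in both. UGT2B15 shared 27.8% of its 50-base windows with transcripts of other listed genes, UGT2B17 above all. UGT2A2 shared 93.3%, UGT2B11 24.8% and UGT2B10 17.2%, so reads of these genes, UGT2B15 included, could be divided. UGT2A3 shared 0.240% and UGT2B7 5.25%.

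UGT1A genes, the bilirubin and phenol conjugating enzymes of liver and gut, were all listed at 0 in both libraries, 9 of 9. They are alternative first exons joined to common last exons, and each shares from 40.5% to 78.7% of its 50-base windows with other listed genes. The protocadherin alpha and gamma clusters (PCDHA and PCDHG, picked after the UGT1A values were seen), built in the same way, were also listed at 0 in all 37 of their genes. No level or limit is therefore read from the UGT1A zeros, and how reads at such loci were assigned was not tested.

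CYP2C genes are the main drug-oxidising cluster on chromosome 10. CYP2C18 (94683820 to 94735444) was the most abundant of those described here in the refractory tumour, going from 2.28 CPM to 49.2 CPM, a ratio of 21.6 (95% interval 18.5 to 25.3). CYP2C19, which oxidises proton pump inhibitors (94762706 to 94852914), stood at 0.0785 and 3.81 CPM, a ratio of 48.5 (95% interval 21.96 to 133.7). CYP2C8, which oxidises paclitaxel (95037128 to 95069402), went the other way, at 2.63 and 1.69 CPM (log2 -0.43), and did not pass 2-fold. Genes of 1 cluster thus differed in direction. CYP2C18 shared 0.787% of its windows with listed genes, and CYP2C19 shared 9.54%. With genes outside the deposited table included, the shares were 36.6% and 56.4%.

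Outside CYP2C, 2 of 8 described CYP2 genes were higher and 0 lower, beside 9.80% and 11.0% of all described genes. Both higher genes reached 1 CPM in the refractory library only, and such genes are more likely to be called. CYP2S1, a P450 of epithelia outside the liver (chromosome 19, 41193265 to 41206488), stood at 0.602 and 20.8 CPM, a ratio of 34.6 (95% interval 25.8 to 47.5). CYP2W1, known from fetal gut and colorectal tumours (chromosome 7, 983212 to 988822), stood at 0.798 and 4.13 CPM, a ratio of 5.18 (95% interval 3.90 to 6.97). The other 6 were between. CYP2R1, the vitamin D 25-hydroxylase, stood at 8.99 and 15.1 CPM, and CYP2J2, an arachidonic acid epoxygenase, at 7.29 and 9.69 CPM. CYP2U1, a fatty acid hydroxylase, stood at 5.36 and 6.35 CPM. CYP2B6 was the one just under 2-fold with 1 CPM added (log2 0.86), at 0.288 and 1.33 CPM, a plain ratio of 4.63 (95% interval 2.85 to 7.80). CYP2D6 (2.71 and 1.92 CPM) shared 34.4% of its windows, with CYP2D7 above all, and the ethanol-oxidising CYP2E1 stood at 1.74 and 1.28 CPM. Of the CYP2A genes and CYP2F1, none passed 3 counts. The CYP2 family as a whole summed to 33.1 and 124 CPM, a ratio of 3.75 (95% interval 3.59 to 3.93), and to 7.06% and 28.2% of the summed CPM of all 68 enzymes.

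CYP3A5 (chromosome 7, 99648305 to 99679896) was the most abundant enzyme of the set per gene length in both tumours, at 74.6 and 76.3 FPKM (fragments scaled by transcript length and depth). Its level was 119.7 and 128.9 CPM, a ratio of 1.08 (95% interval 1.04 to 1.11). CYP3A4, the main hepatic enzyme for DM1, had 8 and 10 counts, or 0.105 and 0.169 CPM, and CYP3A43 had 0. CYP3A7, the fetal form, stood at 1.07 and 0.657 CPM and shared 65.8% of its windows with listed genes. CYP3A5 thus supplied nearly all CYP3A reads in each library.

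Of 12 CYP4 genes 6 could be described. Of those, 5 passed 2-fold, all lower after T-DM1, against 11.0% of all described genes. The other 7 also had fewer CPM there, but 6 of them were under 1 CPM in both tumours, some with too few counts to tell apart. The family summed to 180 and 53.7 CPM, 3.36-fold lower (95% interval 3.23 to 3.49), and to 38.5% and 12.2% of the summed CPM of the 68 enzymes. CYP4F3, the leukotriene B4 hydroxylase (chromosome 19, 15641416 to 15659385), stood at 86.6 and 12.5 CPM, 6.95-fold lower (95% interval 6.44 to 7.504). CYP4F12 (15673530 to 15697085), which oxidises fatty acids in gut, stood at 24.2 and 5.80 CPM, 4.17-fold lower (95% interval 3.72 to 4.70). CYP4F11, a vitamin K hydroxylase (15913732 to 15934408), stood at 10.97 and 0.775 CPM, 14.2-fold lower (95% interval 10.5 to 19.5). All 3 described genes of the CYP4F cluster were thus lower. Among its members under 1 CPM, CYP4F8 had 25 counts against 0 and was 6.47-fold lower at the floor of 3 counts. CYP4F22, a skin ceramide enzyme, had 15 against 0 and was 3.88-fold lower at that floor. The exact 95% intervals of these folds begin at 4.88 and 2.78. CYP4F2 had 5 against 2.

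CYP4 genes elsewhere differed less evenly. CYP4B1 (chromosome 1, 46799082 to 46818814) stood at 4.63 and 0.219 CPM, 21.1-fold lower (95% interval 12.2 to 40.1), and CYP4X1, of the same cluster (47023818 to 47050174) at 5.57 and 1.28 CPM, 4.35-fold lower (95% interval 3.40 to 5.63). CYP4Z1, also there, had 42 counts against 2, a fold of 16.3 with an interval of 4.24 to 139. CYP4A22 had 7 against 1, and CYP4A11 had 1 against 0, too few to tell apart. CYP4V2, a lipid hydroxylase known from corneal and retinal disease, on chromosome 4, stood at 46.9 and 33.1 CPM (log2 -0.49) and did not pass 2-fold.

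CYP1B1, which oxidises estradiol and polycyclic hydrocarbons (chromosome 2, 38070722 to 38075388), stood at 34.6 and 6.30 CPM, 5.49-fold lower (95% interval 4.92 to 6.13). CYP1A1, the textbook target of the receptor AHR, had 0 counts in the untreated and 13 in the refractory tumour. At the floor used for a gene at 0, CYP1A1 was 5.58-fold higher, with an exact 95% interval that begins at 3.93. CYP1A2 had 5 and 0 counts. CYP1B1 was thus the only CYP1 gene above 1 CPM in either tumour.

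**Figure D3:**
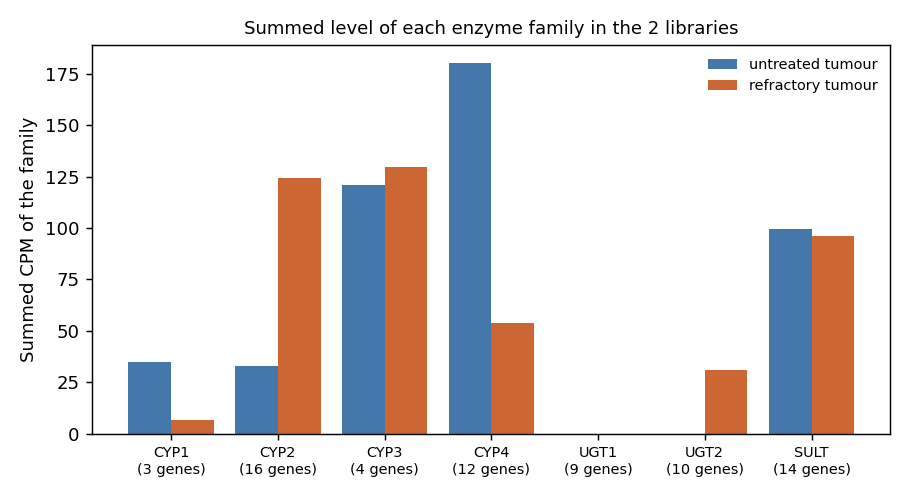
Summed CPM of each enzyme family in the untreated and refractory library (1 each), on an axis from 0. CYP2 (33.1 and 124 CPM) and UGT2 (0.0523 and 30.8 CPM) were higher and CYP4 (180 and 53.7 CPM) lower in the refractory library, and CYP3 and SULT sums were similar. UGT1 stands at 0, from which no level is read.

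SULT genes nearly balanced in sum, at 99.7 and 96.0 CPM, a ratio of 0.964 (95% interval 0.931 to 0.997), but single members differed in direction. SULT2B1, the cholesterol sulfotransferase of stratified epithelium (chromosome 19, 48552253 to 48599406), stood at 46.2 and 10.9 CPM, 4.25-fold lower (95% interval 3.90 to 4.63). SULT1E1, the estrogen sulfotransferase (chromosome 4, 69841994 to 69857644), stood at 0.549 and 8.14 CPM, a ratio of 14.8 (95% interval 10.8 to 20.8). SULT1A1, the main phenol sulfotransferase (chromosome 16, 28605821 to 28608855), stood at 5.61 and 12.3 CPM, a ratio of 2.18 (95% interval 1.94 to 2.47). Its log2 of 1.003 sat on the threshold, and it was no longer called under any of the 3 other scalings. SULT1B1, a phenol and thyroid hormone sulfotransferase of gut, stood at 4.64 and 7.23 CPM and was between.

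SULT1A3 and SULT1A4, dopamine sulfotransferases encoded by near-identical copies, stood at 8.66 and 14.9 CPM and at 33.2 and 42.1 CPM. They shared 96.7% and 99.1% of their windows with listed genes, so the division of reads between them is uncertain. SULT1A2 had 41 and 30 counts. SULT1C2 had 16 against 0 and was 4.14-fold lower at the floor of 3 counts, with an exact 95% interval that begins at 2.99. SULT1C3, SULT1C4, SULT1C2P1, SULT2A1, SULT4A1 and SULT6B1 had 0 in both. On the FPKM scale SULT2B1 was the next enzyme after CYP3A5 in the untreated tumour (50.7 FPKM), ahead of CYP4F3 (32.7) and SULT1A4 (30.0). In the refractory tumour the order after CYP3A5 was SULT1A4 (37.7 FPKM), CYP2C18 (21.7) and SULT1A3 (13.3). With 1 library each, neighbours in these orders have no spread to set them against.

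The 3 clusters differed in what lay around them. For the UGT2 cluster and SULT1E1, which share a stretch of chromosome 4, the 5 nearest described genes on each side had a median log2 of -0.28, from -1.28 to 0.34, with 0 of 10 higher. For CYP2C the median of the neighbours was -0.10, and the highest was PLCE1 at 1.54. For CYP4F the neighbours were low too, with a median of -0.80, from -2.52 (NOTCH3) to -0.38, and 4 of 10 at least 2-fold lower, among them WIZ and HSH2D. CYP4F3 and CYP4F11, at -2.70 and -2.75, lay below all 10, and CYP4F12, at -1.89, lay below 9. Around CYP4B1 and CYP4X1 the median was 0.16, from -1.49 to 3.92, with 1 of 10 higher and 1 lower. Around CYP2S1 it was 0.17, from -2.49 to 3.09, with 2 of 10 higher and 1 lower. Around SULT2B1 it was 0.05, from -0.78 to 0.34, with 0 of 10 called. For CYP1B1 the median was -0.21, from -5.44 to 0.28, with 0 of 10 higher and 2 lower, the lowest of them below CYP1B1 itself at -2.28. The median was 0.35 for CYP2W1 and 0.02 for SULT1A1, each with 0 of 10 called. Whether copy number or another property of the region moved with the CYP4F genes was not tested.

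**Figure D4:**
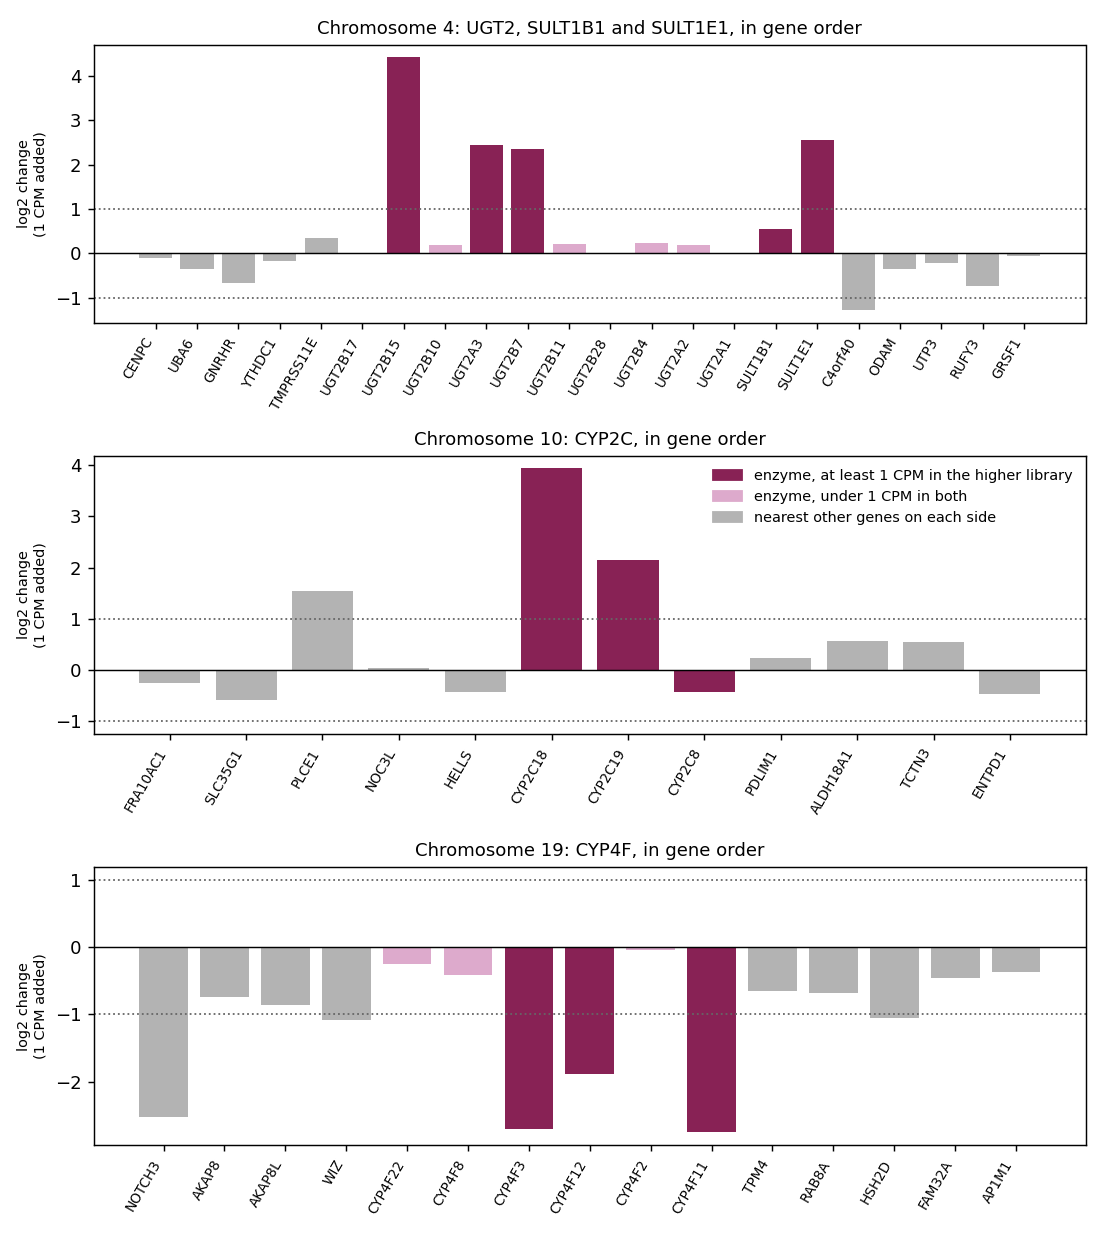
Log2 change (1 CPM added) in gene order for 3 enzyme clusters and the nearest other described genes on each side (a few genes are not drawn), with dotted lines at 2-fold. UGT2B15, UGT2A3, UGT2B7, SULT1E1, CYP2C18 and CYP2C19 stand above the neighbours drawn, and CYP4F3, CYP4F11 and CYP4F12 lie low among neighbours that are all below 0.

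The genes that serve these enzymes changed at a few points. The list counts here and in the next paragraphs stand beside 9.80% higher and 11.0% lower of all described genes. These lists are small. Cofactor supply for conjugation held 2 higher and 0 lower of 9 genes (median log2 0.27). PAPSS2, which makes the sulfate donor PAPS, stood at 2.17 and 25.01 CPM, a ratio of 11.5 (95% interval 9.81 to 13.6), while its paralog PAPSS1 stood at 123.9 and 70.4 CPM and was between. UGDH, which makes the UDP-glucuronate used by UGT enzymes, stood at 26.6 and 138 CPM, a ratio of 5.21 (95% interval 4.96 to 5.47). Electron donors and membrane partners of P450 held 0 higher and 1 lower of 7 (median -0.02). POR stood at 78.9 and 77.6 CPM (named after its values were seen), and CYB5B, an outer mitochondrial cytochrome b5, at 304 and 132 CPM.

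Xenobiotic receptors and lineage regulators held 4 higher and 1 lower of 15 described genes (median -0.02), beside 9.80% and 11.0% of all described genes. HNF4G, a nuclear receptor of gut epithelium, stood at 13.4 and 96.5 CPM, a ratio of 7.20 (95% interval 6.73 to 7.70), and the fatty acid receptor PPARA at 39.5 and 90.7 CPM. Of the xenobiotic-sensing receptors, 3 are given after their values were seen: AHR stood at 352 and 326 CPM, the pregnane X receptor NR1I2 had 12 and 54 counts, and the constitutive androstane receptor NR1I3 had 9 and 0. CDX2, an intestinal factor whose motif was searched above, stood at 10.2 and 5.66 CPM.

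**Figure D5:**
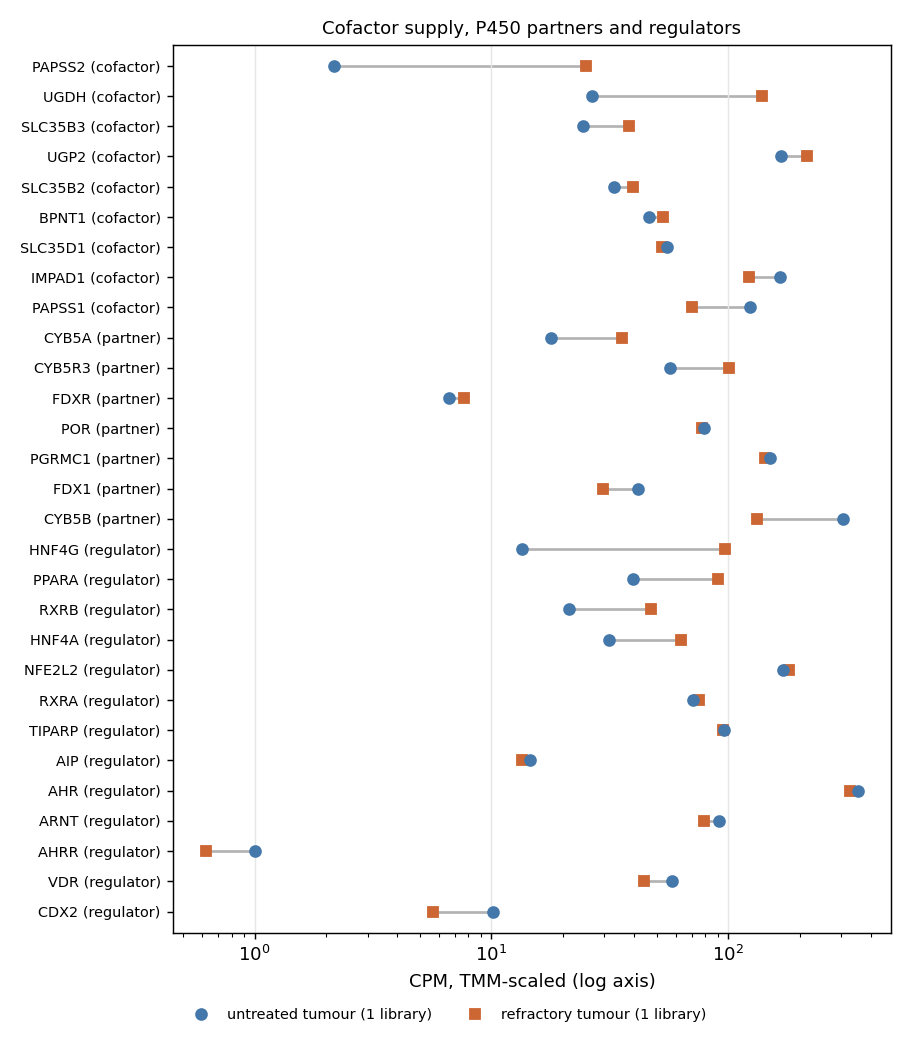
CPM on a log axis for most described genes of 3 lists (cofactor supply, P450 partners, regulators), with a circle for the untreated and a square for the refractory library (1 each). PAPSS2, UGDH and HNF4G lie to the right in the refractory library, and the POR and AHR symbols nearly coincide.

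P450 genes of families outside CYP1 to CYP4 held 0 higher and 3 lower of 7 described (median -0.997): CYP24A1, which inactivates vitamin D, at 14.3 and 1.33 CPM, CYP26B1, which clears retinoic acid, at 5.89 and 1.05 CPM, and CYP27C1 at 4.30 and 1.01 CPM. Other phase I enzymes held 2 higher and 2 lower of 10 (median 0.03). MAOA, a monoamine oxidase, stood at 3.70 and 103.9 CPM and the carboxylesterase CES2 at 15.9 and 81.6 CPM, while the epoxide hydrolase EPHX2 stood at 11.7 and 1.70 CPM and CES3 at 3.20 and 0.641 CPM. Of 8 other conjugating enzymes described, 0 were called (median 0.21), with UGT8, a ceramide galactosyltransferase, at 188 and 224 CPM. Among 4 deconjugating enzymes the glucuronidase GUSB was higher, at 16.4 and 64.8 CPM.

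Markers of the tissues best known for these enzymes were read beside them. Hepatocyte markers were described in 2 of 6 cases, with 0 called and a summed level of 116 and 83.8 CPM, nearly all SERPINA1. APOB had 0 counts in both, APOA1 and TTR had 0 and 8, and ALB stood at 1.62 and 0.539 CPM. Of 6 enterocyte markers only VIL1, a brush border protein, was described, at 14.6 and 287 CPM. Under 1 CPM, ALPI had 2 and 28 counts, a ratio of 18.0 (95% interval 4.55 to 156), and FABP2 had 0 and 2. FABP1, SI and APOA4 had 0 counts in both. Their part in the enzyme values was not tested. Leukocyte markers were described in 2 of 4 cases and both were higher. CD68 stood at 3.62 and 29.2 CPM and LYZ at 27.2 and 95.9 CPM. Under 1 CPM in both tumours, PTPRC had 5 and 17 counts and CD3E had 0. Fibroblast and endothelial markers were described in 1 of 5 and 1 of 4 cases, with 0 called and sums of 2.94 and 1.85 CPM and of 1.90 and 0.287 CPM. These marker genes are human, and both tumours were of a human carcinoma line grown in mice. No share of leukocytes, fibroblasts or endothelium is therefore read from them. How reads of host mouse cells were handled is not given in the sources here.

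P-values per gene for library against library compare these libraries and not the conditions. For genes called on the same 2 libraries, a low value follows in part from the call and is no separate support. Such p-values are given in the authors' deposited table. In it 13 of the 17 enzymes called here had p under 0.05. The others were CYP4F12, CYP4X1, SULT1A1 and SULT2B1, with p = 0.0665, 0.0619, 0.304 and 0.0627 in the authors' deposited table.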

How the data were processed

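Polyadenylated RNA of 1 untreated and 1 refractory tumour was sequenced. The deposited read counts are expected counts, not always whole (92.8% and 93.2% exactly whole). FPKM is the deposited per-length level, named so in the file headers. The deposited log2 fold change and p-value are the authors' own, per the file headers. Tools named by the submitters' processing notes are RSEM 1.2.28, edgeR 3.26.8, STAR 2.7.0e and bcl2fastq 2.20, with builds GRCh38 and GRCm38. Neither their roles nor the annotation is given in the sources used here.

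Expected counts were rounded, TMM factors were 1.0097 and 0.9904 (edgeR 4.0.16, run under R 4.3.3), and CPM used the scaled libraries. A gene was described at 1 CPM or more in the higher library. Ratios carry Clopper-Pearson 95% intervals. Coordinates are the table's coding start, counted from 1, and end. Shared windows used GENCODE 29 transcripts. The enzymes and lists were chosen knowing earlier results of these data. A few genes, 1 enzyme among them, are not reported here but enter all counts and sums. Every other described enzyme is named, with low members of CYP1A, CYP2C, CYP3A and UGT1A, the low member of each family with the most counts, and up to 3 genes per list and direction; other low members and markers were picked after their values were seen. The promoter search used the 250 bases before the start and left out the part of each entry after it. Groups came from the treatment labels. Other scalings (DESeq2 1.42.0 for median of ratios), pseudocounts, filters, thresholds and FPKM were tried.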

Additional observations from a re-analysis of the deposited data

How the results depend on the processing

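No paired analysis was possible because each group had 1 library, and no library could be left out. Calls at 2-fold were recomputed under 10 other settings and 1 more chosen after seeing the data. No described enzyme called at 2-fold changed direction, though a filter, a threshold or the CPM added cannot reverse a sign. By total count, median of ratios or total count without the 50 most abundant genes, 9 of the 10 higher calls and all 7 lower calls were shared with the main result, SULT1A1 being lost. With 5 CPM added, 5 enzymes were higher and 5 lower, beside 5.80% and 5.93% of all genes so described. With 0.1 CPM added, 11 were higher, CYP2B6 being gained, and 7 lower, beside 11.9% and 13.5%. Without a filter all 68 enzymes entered, the UGT1A zeros among them. The median log2 was then 0.00 and the same 10 and 7 were called, beside 4.63% and 5.19%. At 10 CPM or more, 14 enzymes were described, 4 higher and 5 lower, beside 9.44% and 8.89%. The 4-fold threshold left 8 higher and 4 lower, beside 2.54% and 3.56%, with most of the 8 under 1 CPM in the untreated library. On the deposited FPKM the calls were the same 10 and 7, beside 8.68% and 8.98%. Leaving out enzymes with over 10% of their windows shared with listed genes kept 8 higher and 7 lower of 24, and was the setting chosen later. Depth limits the low members: 3 counts equal 0.0392 and 0.0506 CPM.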
